A study of Mus musculus with 2 samples.

Results

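Granzyme K-positive CD8 T cells whose T cell receptor used none of 6 expanded Trbv segments made up 1197 of 13620 spleen cells that passed filtering, 596 of 5619 cells of old recipient origin and 601 of 8001 cells of young donor origin. A cell was taken when it had at least 500 detected genes, at most 10% mitochondrial UMIs (unique molecular identifiers, one per captured RNA molecule), at least 2 Gzmk UMIs and a leading Trbv segment, the one with most UMIs and no tie, outside Trbv5, Trbv12-1, Trbv13-2, Trbv16, Trbv17 and Trbv19. Gzmk and Trbv UMIs therefore chose the cells, and their levels are given below as a description.

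The study placed CD8 T cells of young and old origin in the same aged environment. Total CD8 T cells of wild-type CD45.1 C57BL/6J mice aged 3 months were transferred into wild-type CD45.2 C57BL/6J mice aged 24 months, and viable CD3e+CD8a+ spleen cells were sorted 1 month later, when the host was 25 months old. CD45.2+ cells formed the old recipient library and CD45.1+ cells the young donor library. Each origin gave 1 droplet 5′ gene expression library, and the labels did not say whether a library came from 1 mouse or from a pool. Age, CD45 allele, transfer and library therefore cannot be told apart. No test between groups was possible, and the 95% intervals describe counting error alone.

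Granzyme K is a serine protease stored in the granules of cytotoxic lymphocytes. CD8 T cells that express it with the inhibitory receptors PD-1 and TIGIT, the nuclear factor TOX and the adhesion receptor integrin alpha 4 are known to accumulate with age in mouse tissues, often as large clones. A T cell clone keeps the V segments of its rearranged beta and alpha receptor chains, so cells of 1 clone share a Trbv and a Trav segment, while cells sharing both need not be 1 clone.

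The 2 libraries held 41504941 UMIs in 6174 barcodes (old recipient) and 65006187 UMIs in 8588 barcodes (young donor). Of the filtered cells, 97.1% (recipient) and 96.5% (donor) had a leading Trbv. Summed over the Gzmk cells outside the segments there were 3529056 UMIs (recipient) and 3454458 UMIs (donor), with medians of 4783 and 4776 UMIs per cell. Cells with no Gzmk UMI and a leading Trbv outside the same segments, called Gzmk=0 cells below, were deeper, with medians of 7659 UMIs (recipient) and 8342 UMIs (donor). The libraries shared 105 barcodes, among them 10 recipient and 6 donor Gzmk cells. A score against simulated doublets marked 79 recipient Gzmk cells (13.3%) and 82 donor Gzmk cells (13.6%), against 4.95% of all recipient and 6.87% of all donor cells. A second Trbv segment with 2 or more UMIs was present in 31.2% of recipient and 17.8% of donor Gzmk cells, against 21.2% and 18% of Gzmk=0 cells. The most frequent such combination was Trbv13-3 leading with Trbv13-2 second, in 21 of 186 such recipient cells, and reads of segments this similar may be divided between them. Trbv1 leading with Trbv4 second followed, in 16 recipient cells. In the donor, Trbv14 led with Trbv13-2 second in 16 of 107 such cells. The source of these second segments was not tested.

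Promoters are shown for Gzmk, which chose the cells, and for Tigit, Pdcd1 and Itga4, whose summed levels were higher in the Gzmk cells of both libraries. The higher Gzmk level follows from the rule itself. Tox was also higher in both libraries, but its promoter was not among the sequences used here. The sequences are from RefSeq on GRCm38.p6 and run 5′ to 3′ along the coding strand, from 250 bases before to 50 bases after the annotated start, and capitals mark matches on either strand to RUNX (TGTGGT), T-box (GGTGTGA), NFAT (GGAAAA) or AP-1 (TGANTCA) motifs. The Gzmk window lies at chr13:113180916-113181215 on the minus strand and held 1 T-box match. The Tigit window lies at chr16:43664135-43664434 on the minus strand and held 1 RUNX and 1 NFAT match. The Pdcd1 window, chr1:94052504-94052803 on the minus strand, held none of these letters, and the Itga4 window, chr2:79255176-79255475 on the plus strand, held 1 RUNX and 1 T-box match.
Gzmk: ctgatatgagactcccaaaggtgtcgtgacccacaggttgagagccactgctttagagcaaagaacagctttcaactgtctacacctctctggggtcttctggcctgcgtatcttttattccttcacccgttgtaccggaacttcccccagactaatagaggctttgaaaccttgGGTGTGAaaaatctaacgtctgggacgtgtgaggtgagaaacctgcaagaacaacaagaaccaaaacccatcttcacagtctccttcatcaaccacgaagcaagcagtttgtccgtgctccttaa
Tigit: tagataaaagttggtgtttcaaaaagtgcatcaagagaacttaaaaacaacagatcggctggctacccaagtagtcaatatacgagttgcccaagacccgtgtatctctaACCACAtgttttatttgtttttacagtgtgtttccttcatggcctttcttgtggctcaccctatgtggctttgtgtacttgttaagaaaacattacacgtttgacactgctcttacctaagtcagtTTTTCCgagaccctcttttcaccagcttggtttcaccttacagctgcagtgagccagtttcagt
Pdcd1: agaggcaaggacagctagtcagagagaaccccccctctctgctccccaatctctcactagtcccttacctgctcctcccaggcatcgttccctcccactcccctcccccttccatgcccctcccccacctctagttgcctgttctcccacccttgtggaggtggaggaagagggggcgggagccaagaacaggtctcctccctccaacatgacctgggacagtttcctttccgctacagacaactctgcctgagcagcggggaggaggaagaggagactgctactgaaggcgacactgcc
Itga4: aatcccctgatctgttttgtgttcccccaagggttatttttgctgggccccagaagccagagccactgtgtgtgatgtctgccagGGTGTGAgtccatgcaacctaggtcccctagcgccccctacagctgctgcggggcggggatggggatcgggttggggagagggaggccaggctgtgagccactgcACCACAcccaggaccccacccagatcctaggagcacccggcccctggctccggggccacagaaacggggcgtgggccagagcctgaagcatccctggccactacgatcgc
Among 32851 mouse promoter windows of this length, 16.8% held the RUNX letters, 3.98% the T-box letters, 23.4% the NFAT letters and 7.81% the AP-1 letters, and a match is a description of the letters, not of binding.

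Among cells with a leading Trbv outside the 6 segments, the Gzmk cells took 17.6% of recipient cells (16.4 to 19.0), 596 of 3380, and 13.2% of donor cells (12.2 to 14.2), 601 of 4559. The intervals of the 2 libraries do not overlap, but with 1 library each this says only that counting error is smaller than the difference. Among cells with one of the 6 segments, the Gzmk share was 27.8% for recipient cells (25.9 to 29.8) and 21% for donor cells (19.6 to 22.4). The median Gzmk cell had 5 Gzmk UMIs (recipient) or 4 (donor), with quartiles of 3 and 8 in the recipient and 3 and 6 in the donor, and the highest had 40 and 35. Just inside the threshold, 89 recipient and 136 donor cells had exactly 2 Gzmk UMIs, and just outside it 127 recipient and 153 donor cells had 1.

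The remaining segments were used unevenly, and each library had its own dominant ones. In the recipient, Trbv1 led with 112 Gzmk cells (18.8%), followed by Trbv12-2 with 82, Trbv13-3 with 74 and Trbv3 with 68. In the donor, Trbv3 led with 128 Gzmk cells (21.3%), followed by Trbv14 with 119 and Trbv29 with 80. Of all recipient cells with Trbv1, 33.5% (28.5 to 38.9) were Gzmk cells, against 4.02% (2.16 to 6.78) in the donor. Trbv12-2 gave 31.7% in the recipient and 5.32% in the donor, and Trbv13-3 gave 18.8% and 1.23% in the same order of libraries. Trbv14 ran the other way, with 6.62% of recipient (4.03 to 10.1) against 29.6% of donor cells (25.2 to 34.3). Trbv3, Trbv4 and Trbv13-1 had overlapping intervals, at 20.8%, 18.8% and 14.7% in the recipient and 24.3%, 17.6% and 12.5% in the donor. Being outside the 6 listed segments therefore did not mean even segment use, and the label holds by its rule only.

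**Figure D1:**
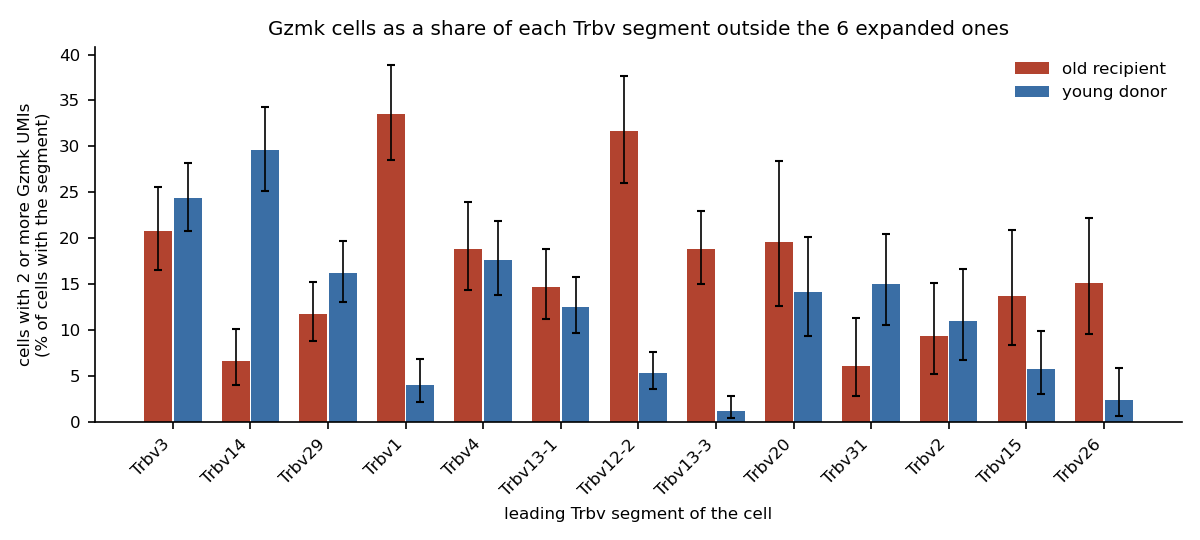
Bars give the share of cells with each leading Trbv segment that had 2 or more Gzmk UMIs, in percent, for the old recipient (red) and the young donor (blue), with exact binomial 95% intervals, for segments with at least 20 Gzmk cells over both libraries. Trbv1, Trbv12-2 and Trbv13-3 stand out in the recipient (33.5%, 31.7% and 18.8%), and Trbv14 in the donor (29.6%).

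Pairs of Trbv and Trav segments were still more concentrated. A leading Trav was found in 459 recipient and 441 donor Gzmk cells, which formed 152 and 101 different pairs. The effective number of pairs (inverse Simpson index) was 27.7 in recipient Gzmk cells, against 354 in recipient Gzmk=0 cells, and 21.5 in donor Gzmk cells, against 433 in donor Gzmk=0 cells. Gzmk=0 cells with at least 10 Ccl5 UMIs stood at 98.6 in the recipient and 351 in the donor. Gzmk cells inside the 6 segments were more concentrated still, at 15.8 and 7.12. In the recipient, 9 pairs with at least 10 Gzmk cells each held 44.2% of the paired Gzmk cells, and in the donor 14 such pairs held 71.7%. The most frequent recipient pair was Trbv13-3 with Trav13-1, where 60 of 75 cells (80.0%, 69.2 to 88.4) were Gzmk cells, followed by Trbv1 with Trav13-1, where 50 of 61 cells (82.0%) were. In the donor, Trbv4 with Trav7-6 gave 47 of 51 cells (92.2%, 81.1 to 97.8), Trbv3 with Trav7-6 gave 44 of 55 (80.0%) and Trbv14 with Trav6-3 gave 40 of 47 (85.1%). None of these 5 pairs had more than 1 Gzmk cell in the other library. They were picked by their number of Gzmk cells, which favours high shares. Over all pairs with at least 10 Gzmk cells, the share ran from 21.3% (recipient Trbv29 with Trav12-1) to 93.3% (recipient Trbv4 with Trav7n-4). The next donor pair, Trbv29 with Trav16n, gave 28 of 56 cells (50.0%). Several Trav segments have near-identical copies on mouse chromosome 14, so the split between copies is uncertain, and receptor sequences of single cells were not used here.

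The cells carried the markers of CD8 T cells. Cd3e, a chain of the receptor complex, stood at 1348 CPM (UMIs of the gene per 1000000 UMIs of its group of cells) in recipient and 1242 CPM in donor Gzmk cells, Cd8a at 443 and 519 CPM, and Cd8b1 at 1242 and 1609 CPM. Cd4, Ncr1 and the B cell genes Cd79a, Ms4a1 and Pax5 were at 0 UMIs in both libraries. Other genes of the same lists had UMIs. The 9 NK genes summed to 296 (recipient) and 266 CPM (donor) in Gzmk cells, against 106 and 104 CPM in Gzmk=0 cells. CD4 and regulatory T cell genes summed to 71.7 and 53.3 CPM, against 54.8 and 20.6 CPM. Erythroid genes summed to 16.2 and 31.8 CPM, against 12.2 and 9.17 CPM. Stromal genes were lower, at 12.5 and 11.3 CPM, against 30.8 and 22.9 CPM. Of 11 B cell genes 7 had a UMI in the recipient and 6 in the donor, with a summed level of 92.4 and 106 CPM, against 211 and 179 CPM in Gzmk=0 cells. The myeloid list summed to 154 and 155 CPM in Gzmk cells of the recipient and the donor, against 98.1 and 96.6 CPM in Gzmk=0 cells. Donor Gzmk cells held 10.1 CPM of Lyz2, a myeloid lysozyme gene, against 0.3 CPM in recipient Gzmk cells. A list of 8 gamma delta T cell genes summed to 55.0 CPM in recipient and 92.6 CPM in donor Gzmk cells, against 10.8 and 16.5 CPM in Gzmk=0 cells, and most of it was the gamma constant genes Tcrg-C2 (29.2 and 51.2 CPM) and Tcrg-C4 (22.4 and 36.2 CPM). Trdc, the delta constant gene, was at 1.13 and 0.579 CPM. Without cells holding 2 or more UMIs of the B cell, myeloid, erythroid and platelet lists, Gzmk cells took 25.9% of recipient and 20.7% of donor cells outside the segments. The part of the gamma delta, NK and CD4 T cell lists in the results below was not tested.

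Relative to Gzmk=0 cells, the Gzmk cells carried more inhibitory receptor transcripts and fewer naive T cell transcripts in both libraries. A gene counted as called when it had at least 100 UMIs over the groups compared and its CPM ratio was past 1.5-fold, the same way in both libraries. Of 8508 genes, 914 (10.7%) were higher and 328 (3.86%) lower in Gzmk cells. Comparing cells chosen for Gzmk with cells chosen for its absence is the contrast of the rule itself, so these values describe the cells and no test was made. The median gene was itself higher by 0.25 on the log2 scale in the recipient and 0.22 in the donor. Ribosomal protein genes took 29.7% of UMIs in recipient Gzmk cells against 42.7% in Gzmk=0 cells, and 32.4% against 42.6% in the donor. With trimmed-mean (TMM) scaling, which removes that shift, 387 genes were higher and 686 lower, so the balance of directions depends on the scaling.

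Tigit (chromosome 16, 43648867 to 43664146), an inhibitory receptor gene, had 195 CPM in recipient Gzmk cells against 3.53 CPM in Gzmk=0 cells, a log2 ratio of 5.78 [5.44, 6.15], and 148.5 against 4.14 CPM in the donor, a log2 ratio of 5.16 [4.89, 5.45]. PD-1 is encoded by Pdcd1 (chromosome 1, 94038305 to 94052553), which had 74.5 against 3.00 CPM in the recipient and 90.6 against 1.68 CPM in the donor, log2 ratios of 4.64 [4.23, 5.06] and 5.76 [5.34, 6.20]. Tox (chromosome 4, 6686353 to 6991557) differed by less, at 184 against 32.5 CPM in the recipient and 173 against 22.1 CPM in the donor, log2 ratios of 2.50 [2.34, 2.66] and 2.97 [2.81, 3.12]. Itga4 (chromosome 2, 79255426 to 79333123) had 498 against 75.7 CPM in the recipient and 457 against 42.1 CPM in the donor, log2 ratios of 2.72 and 3.44. All 4 markers stood well above the shift of the median gene in both libraries.

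Other genes with the highest ratios in both libraries were Lag3, an inhibitory receptor gene (log2 ratio 4.45 in the recipient and 4.97 in the donor), Gzmb, the gene of granzyme B (3.76 and 4.62), and the survival gene Bcl2a1d (3.88 and 3.79). Ier3, an early response gene, had log2 ratios of 3.69 and 3.56, and Bhlhe40, which encodes a transcription factor of activated T cells, 3.36 and 3.68. Serpina3g, Lgals3 and Tspan3 followed, at 2.85 or more in the recipient and 3.10 or more in the donor. The chemokine gene Ccl3 was at 6.21 [5.75, 6.70] in the recipient and 3.20 [2.93, 3.48] in the donor. Gzma, the gene of granzyme A, ran the other way, at 3.18 [3.02, 3.35] and 5.47 [5.15, 5.79], where Gzmk cells had 208 CPM in the recipient and 135 CPM in the donor and Gzmk=0 cells 22.9 and 3.05 CPM.

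Naive T cell genes were the lowest. Igfbp4, whose product binds insulin-like growth factors, had 70.8 against 393 CPM in the recipient and 22.3 against 154 CPM in the donor, log2 ratios of -2.47 [-2.66, -2.29] and -2.79 [-3.13, -2.46]. Ccr7, the receptor that guides naive cells into lymph nodes, had 67.4 against 355 CPM in the recipient and 69.2 against 277 CPM in the donor, log2 ratios of -2.40 and -2.0. Dapl1 (-2.36 and -2.28), Plac8 (-2.35 and -2.36), Satb1, a chromatin organiser (-2.02 and -1.85), and Il6ra, the interleukin 6 receptor chain (-2.21 and -2.07), were also lower. Tcf7, which encodes the stem-like factor TCF1, was lower by 1.5-fold only in the recipient, with log2 ratios of -0.67 and -0.37.

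**Figure D2:**
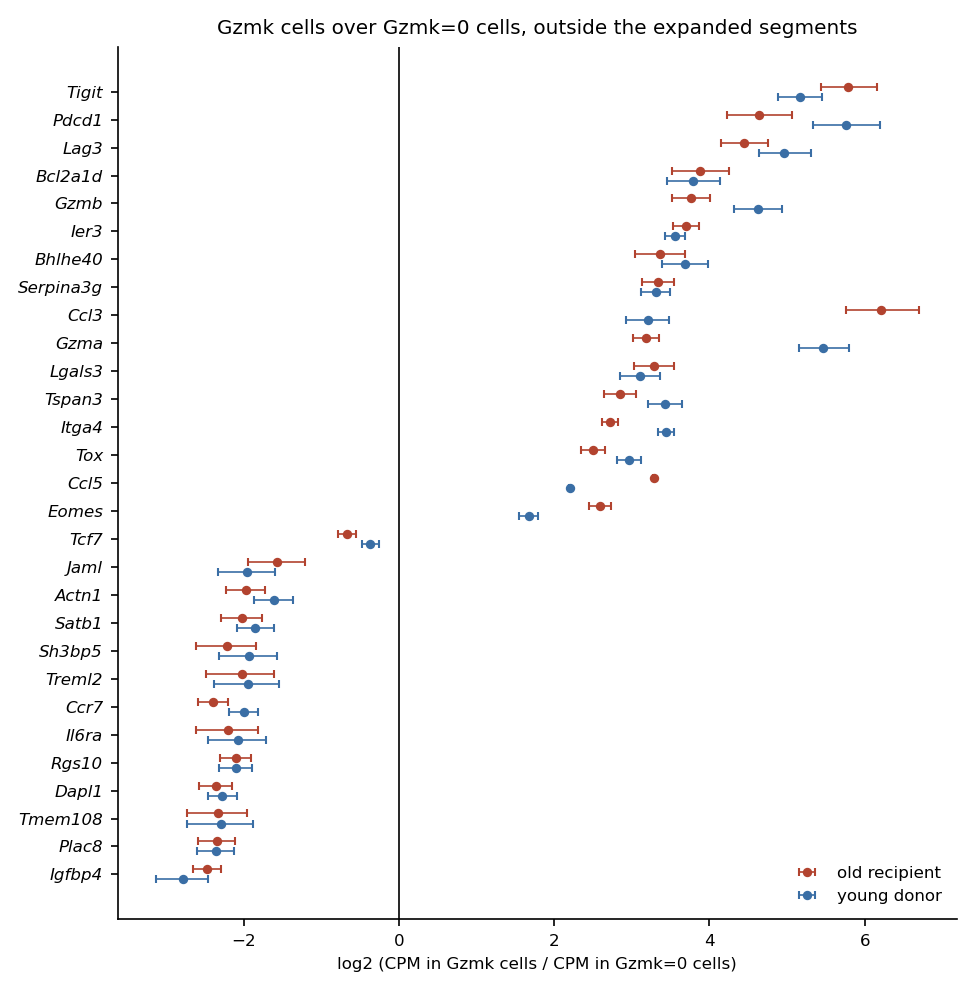
Points give the log2 ratio of CPM in Gzmk cells over Gzmk=0 cells outside the expanded segments, in the old recipient (red) and the young donor (blue), with 95% counting intervals. Tigit, Pdcd1 and Lag3 lie above 4 in both libraries, Ccl3 and Gzma differ between libraries, and Igfbp4, Ccr7 and Dapl1 lie at or below -2.

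The gene lists were chosen with earlier results of these data known, and the cells by Gzmk, so the counts by list are a description only. By list, 13 of 15 tested genes of the age-associated program were past 1.5-fold higher in recipient Gzmk cells and 15 of 15 in donor Gzmk cells, with median log2 ratios of 2.94 and 3.20. Over all genes tested in each library the shares past 1.5-fold higher were 18.9% and 16.4%, and the shares lower 6.83% and 6.70%. Of 16 naive and stem-like genes, 12 were lower in the recipient and 11 in the donor, where Slamf6 (1.40) was the 1 gene higher. Of the inhibitory receptor list, 8 of 12 were higher and 1 lower in the recipient, and 9 of 11 were higher and none lower in the donor. Immediate early genes stayed near the median gene, with 1 of 12 higher and 2 lower in the recipient and 1 of 13 higher and 2 lower in the donor (median log2 ratios 0.04 and 0.19). Among transcription factors linked to exhaustion, 9 of 15 were higher and 3 lower in the recipient, and 9 of 16 were higher and 3 lower in the donor. Nr4a2 (2.94 and 3.51) and Batf (1.11 and 1.34) were among the higher genes, and Bach2 (-0.81 and -1.14) was among the lower. Homing receptors split, with Ccr2 (2.38 and 1.84) and Cx3cr1 (3.10 and 4.34) higher and Ccr7 and Ccr9 (-2.07 and -2.43) lower. Cell cycle genes were higher for 11 of 14 in the recipient and 12 of 17 in the donor, and cells with at least 3 UMIs over 8 cycling genes were 2.35% (1.29 to 3.91) of recipient Gzmk cells against 0.640% (0.373 to 1.02) of Gzmk=0 cells, and 1.66% (0.801 to 3.04) against 1.29% (0.954 to 1.70) in the donor. MHC class I genes were higher for 10 of 13 in each library, with medians of 0.82 and 0.80, but TMM scaling left 2 in the recipient and 4 in the donor.

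Set against Gzmk=0 cells that were themselves rich in Ccl5, with at least 10 UMIs of this chemokine of memory cells, the Gzmk cells still had far more of the marker transcripts. The cutoff did not make Ccl5 levels equal. The chemokine and cytokine list, which includes Ccl5, summed to 30522 CPM in recipient Gzmk cells against 10197 CPM in these cells. In the donor the sums were 23883 and 8247 CPM. There were 796 such recipient and 2337 such donor cells, and 643 of 6818 genes (9.43%) were higher and 181 (2.65%) lower in Gzmk cells in both libraries. In the single libraries the shares were 15.1% higher and 5.04% lower in the recipient and 15.4% and 6.17% in the donor. TMM scaling gave 298 higher and 435 lower genes in both. Tigit had log2 ratios of 4.74 in the recipient and 4.71 in the donor, Lag3 of 4.50 and 5.62, Pdcd1 of 3.89 and 5.67, Tox of 2.78 and 3.06 and Itga4 of 2.46 and 3.98. Virtual and central memory genes went both ways, with 4 of 17 higher and 6 lower in the recipient and 6 of 17 higher and 4 lower in the donor. Among the lowest ratios, Fcgrt, which encodes the neonatal Fc receptor, had 9.63 CPM in recipient Gzmk cells against 72.6 CPM in the Ccl5-rich Gzmk=0 cells, and 25.8 against 144 CPM in the donor, log2 ratios of -2.91 and -2.48. Ly6c2, a surface antigen gene of memory cells, was at -2.31 and -2.10. The Ly49 receptor gene Klra7 was at -5.63 in the recipient and -2.70 in the donor and Klra6 at -3.31 and -2.83. Over the whole NK receptor list, none of 12 was higher and 7 were lower in the recipient, and 3 of 8 were higher and 3 lower in the donor. Cd44 did not differ beyond its interval, at -0.09 [-0.33, 0.15] and 0.13 [-0.07, 0.32].

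Most Gzmk cells had a UMI of at least 1 of the 4 markers, and few had all of them. With each cell thinned to 2000 UMIs, which left out 7 recipient and 6 donor Gzmk cells, Itga4 had a UMI in 62.0% of recipient and 60.2% of donor Gzmk cells, Tox in 32.9% and 29.6%, Tigit in 31.4% and 25.7%, and Pdcd1 in 16.1% and 19.2%. Gzmk=0 cells thinned alike gave 15.0% and 8.01% for Itga4, 6.46% and 4.79% for Tox, 0.722% and 1.03% for Tigit and 0.684% and 0.448% for Pdcd1. At least 1 of these 4 markers had a UMI in 83.2% of recipient (79.9 to 86.1) and 82.5% (79.2 to 85.5) of donor Gzmk cells, against 21.1% (19.6 to 22.7) and 12.9% (11.8 to 14) of Gzmk=0 cells. Exactly 1 marker was found in 238 recipient and 256 donor Gzmk cells, 2 in 166 and 166, 3 in 75 and 63, and all 4 in 11 and 6 at this depth.

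Marker levels changed with the number of Gzmk UMIs in a cell, but not alike for all 4 markers. Tigit in the recipient was at 45.22 CPM in cells with 1 Gzmk UMI, 116 CPM with 2, 139 CPM with 3 to 4, 199 CPM with 5 to 9 and 300.5 CPM with 10 or more. In the donor the same steps gave 54.6, 96.7, 129, 192 and 179 CPM, so the last step did not go on rising there. Tox in the recipient went from 102 CPM at 1 UMI to 211 CPM at 10 or more. From 2 Gzmk UMIs on, Itga4 showed no steady rise, at 418, 530, 515 and 489 CPM in the recipient. Its donor levels were 429, 432, 503 and 451 CPM. Pdcd1 over these steps was at 48.3, 84.0, 66.8 and 93.5 CPM in the recipient and 73.2, 81.0, 109 and 98.9 CPM in the donor. Ccr7 in the recipient fell over these steps from 194 CPM at 1 UMI through 141, 79.6 and 54.7 to 27.4 CPM, and in the donor it was 153, 87.5, 68.1, 64.4 and 49.5 CPM. Cells with 1 Gzmk UMI, just outside the rule, thus lay between Gzmk=0 cells and the Gzmk cells, and cells with more Gzmk UMIs were also somewhat deeper, with medians of 6166 UMIs in the recipient and 5532 UMIs in the donor in the highest step.

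**Figure D3:**
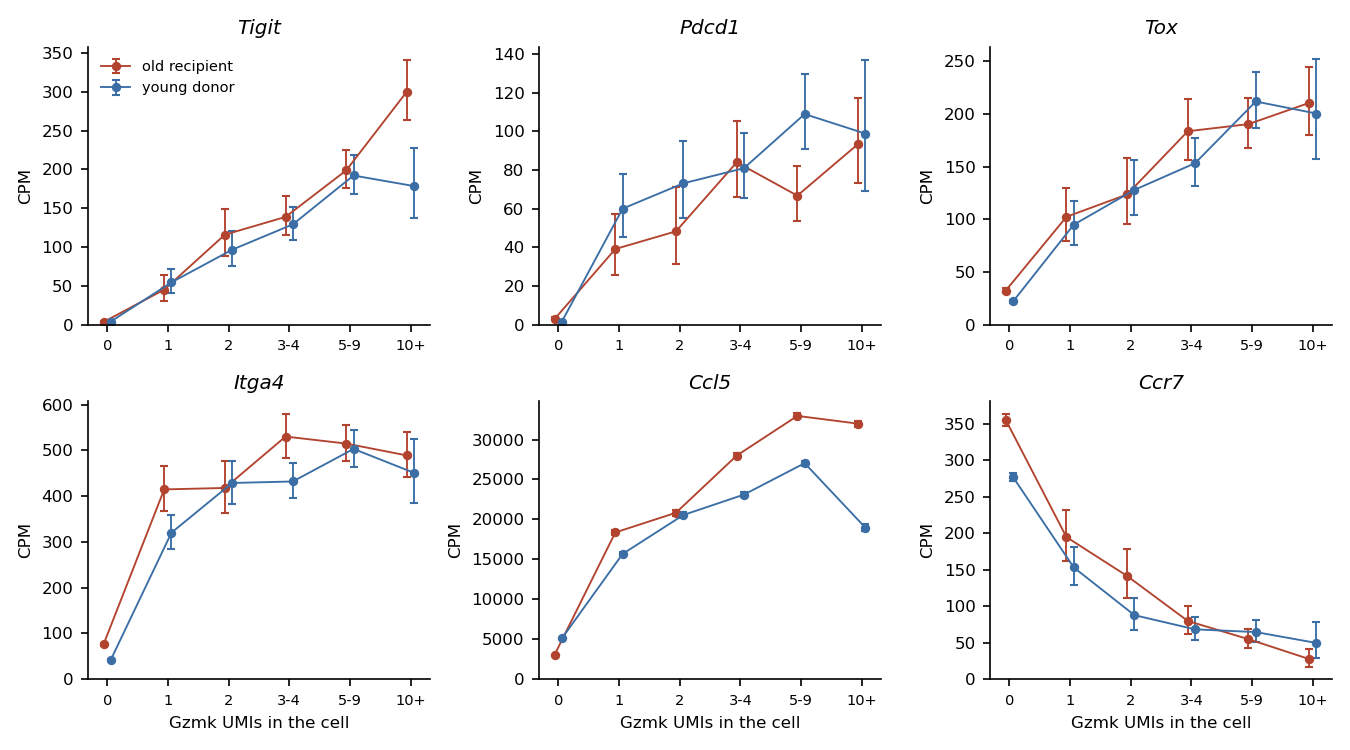
Each panel gives the CPM of 1 gene in cells grouped by their Gzmk UMIs (0, 1, 2, 3 to 4, 5 to 9, 10 or more), for the old recipient (red) and the young donor (blue), with exact Poisson 95% intervals. Tigit, Tox, Pdcd1 and Itga4 step up between 0 and 1 to 2 UMIs, and Ccr7 steps down.

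Between the libraries, the Gzmk cells were alike in most genes. Of 6013 genes with at least 100 UMIs, 98 (1.63%) were past 1.5-fold higher in recipient Gzmk cells and 46 (0.765%) lower, and the median gene differed by 0.04 on the log2 scale. Tox and Itga4 were close to equality. Tox had 184 CPM in the recipient and 173 CPM in the donor, a log2 ratio of 0.09 [-0.07, 0.25], and Itga4 had 498 and 457 CPM, a ratio of 0.12 [0.03, 0.22]. Gzmk itself stood at 1066 and 867 CPM (0.30 [0.23, 0.37]) and Tigit at 195 and 148.5 CPM (0.39 [0.22, 0.56]). Pdcd1 was on the other side, at 74.5 and 90.6 CPM (-0.28 [-0.52, -0.04]), and without Trbv1, Trbv12-2, Trbv13-3, Trbv3, Trbv14 and Trbv29 its ratio was 0.79, so its direction rests on those segments.

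The highest ratio belonged to Penk (chromosome 4, 4133531 to 4138819), the gene of the opioid precursor proenkephalin, with 51.6 CPM (44.4 to 59.6) in recipient and 5.50 CPM (3.31 to 8.59) in donor Gzmk cells, a log2 ratio of 3.23 [2.54, 3.99]. Its 182 recipient UMIs lay in 42 cells, and 10 cells held 76.4% of them. Gzmk=0 cells differed the same way at far lower levels, with Penk at 1.79 CPM (recipient) and 0.091 CPM (donor). Igfbp4 (chromosome 11, 99041244 to 99054392) stood at 70.8 CPM against 22.3 CPM, a ratio of 1.67 [1.29, 2.06], in 58 recipient and 21 donor cells, so a naive gene that was low in Gzmk cells of both libraries was still higher in the recipient. Ikzf2 (chromosome 1, 69531214 to 69687245), which encodes the transcription factor Helios, had 56.7 and 19.4 CPM, a ratio of 1.55 [1.14, 1.97]. Of the 200 recipient Ikzf2 UMIs, 79 lay in the 74 cells with Trbv13-3. Igfbp4 and Ikzf2 were also higher in recipient Gzmk=0 cells, with Ikzf2 at 12.5 CPM there and 1.37 CPM in donor Gzmk=0 cells. Without the common receptor pairs the ratio of Ikzf2 was 0.81, and without the most common segments of either library it was 2.36.

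The genes of the inflammatory chemokines Ccl3 and Ccl4 were higher in the recipient. Ccl3 (chromosome 11, 83647844 to 83649355) had 150.2 and 62.8 CPM in recipient and donor Gzmk cells, a ratio of 1.26 [1.03, 1.49], and Ccl4 had 397 and 179 CPM, a ratio of 1.15 [1.01, 1.29]. Trbv12-2 cells, 82 of 596 in the recipient, held 187 of the 530 recipient Ccl3 UMIs. Without the 3 most common segments of either library the ratio was -0.08 for Ccl3 and 0.61 for Ccl4. Ccl5 differed by less, at 29707 and 23430.0 CPM (0.34). In Gzmk=0 cells the recipient was lower instead, at 2.03 against 6.83 CPM for Ccl3 and 21.7 against 48.4 CPM for Ccl4.

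The NK receptor genes Klrk1 (0.92 [0.69, 1.15]), which encodes NKG2D, and Klre1 (0.81 [0.52, 1.10]) were higher in the recipient, as were Btg2, an antiproliferative gene (143 and 72.9 CPM, 0.97 [0.75, 1.20]), Chchd10, a mitochondrial protein gene (1.14), and Cd5, a brake on receptor signalling (240 and 141 CPM, 0.76 [0.60, 0.93]). Klrg1, an inhibitory receptor of effector cells, had 72.5 and 44.6 CPM (0.70 [0.41, 1.00]) and Gzma 208 and 135 CPM (0.63 [0.46, 0.80]). Of the Gzma UMIs, 57.4% (recipient) and 66.7% (donor) lay in 10 cells each. With the top Gzma segment of each library left out, Gzma was at 98.9 CPM in the recipient (without Trbv29) and 103 CPM in the donor (without Trbv14). Without the 3 most common segments of either library Klrg1 was at 0.11. Gzmk=0 cells differed the same way, at 5.08 (recipient) and 0.853 CPM (donor) for Klrg1 and 22.9 and 3.05 CPM for Gzma. The histone gene Hist1h2ap (1.49) and the cell cycle gene Stmn1 (0.97) were carried by few cells, with 89.2% and 68.2% of the recipient UMIs in 10 cells each.

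Lower in recipient Gzmk cells was Ctse (chromosome 1, 131638306 to 131675505), the gene of the aspartic protease cathepsin E, with 26.6 CPM (in 82 cells) and 114 CPM (in 265 donor cells), a log2 ratio of -2.10 [-2.44, -1.77]. Ctse was also lower in recipient Gzmk=0 cells, at 14.9 against 77.8 CPM, so this difference was not particular to the Gzmk cells. The granzyme gene Gzmm had 31.5 and 61.4 CPM (-0.96 [-1.31, -0.63]). Cxcr6, a chemokine receptor of tissue-homing T cells, had 60.4 and 100.2 CPM (-0.73 [-0.98, -0.48]). Trbv14 cells held 187 of the 346 donor Cxcr6 UMIs, and without the 3 most common segments of either library the ratio was 0.22. In Gzmk=0 cells Cxcr6 was at 54.2 CPM (recipient) and 51.6 CPM (donor). Ptpn11, which encodes the phosphatase SHP2, had 38.0 and 62.2 CPM (-0.71 [-1.04, -0.40]). Gpr183, an oxysterol receptor gene (-0.56), Klf6 (-0.56), Myc (-0.56) and Il18r1, the interleukin 18 receptor gene (-0.50), were lower by less than 1.5-fold. The libraries also differ in the Ptprc allele that was sorted on, and of 41 tested genes within 10 Mb of Ptprc 5 were called (12.2%, against 2.33% elsewhere), among them Btg2 at 4.04 Mb and Ctse at 6.46 Mb, so linked strain differences and origin cannot be told apart for these genes.

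**Figure D4:**
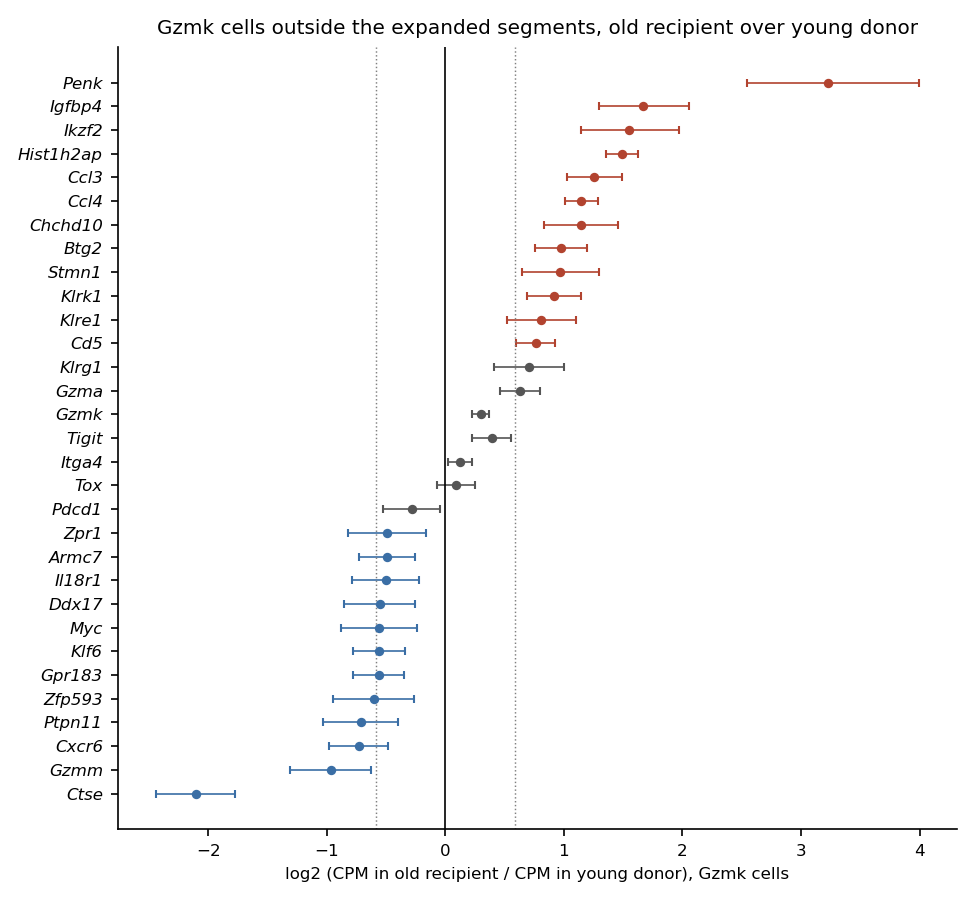
Points give the log2 ratio of CPM in old recipient over young donor Gzmk cells with 95% counting intervals, for the 12 highest (red), the 12 lowest (blue) and 7 further genes (grey), and dotted lines mark 1.5-fold. Penk (3.23) and Ctse (-2.10) lie outermost, and Tox, Itga4, Tigit and Pdcd1 lie between the dotted lines.

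Between the libraries 1.63% of all genes tested were past 1.5-fold higher and 0.765% lower, so 1 gene or none in a list is close to that share. By list, 4 of 15 tested genes of the age-associated program were past 1.5-fold higher in the recipient (Ikzf2, Ccl3, Ccl4 and Klrg1) and 1 lower (Cxcr6), with a median log2 ratio of 0.34. Without the 3 most common segments of either library that median was 0.12, and it was 0.10 without cells holding UMIs of other cell types. Of 5 NK receptor genes 2 were higher and none lower, with a median of 0.37 that was 0.025 without those segments, and of 16 cell cycle genes 3 were higher (Rrm2 at 1.84, Stmn1 at 0.97 and Top2a at 0.76), with a median of 0.30 that reached -0.016 at its lowest over the settings tried. Inhibitory receptors had 1 of 10 higher (Klrg1), with Ctla4 at 0.51 and Lag3 at 0.39 below the threshold. None of 13 MHC class I, 18 interferon response or 14 glycolysis genes was past 1.5-fold either way, with medians of 0.16, 0.08 and 0.06. Integrins and adhesion genes had 1 of 12 lower (Cd226), and cytotoxic granule genes had 1 of 11 higher (Gzma) and 1 lower (Gzmm).

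Levels varied widely between receptor pairs within 1 library. Pdcd1 in the donor was at 290.3 CPM in the 40 cells with Trbv14 and Trav6-3, 179 CPM in the 28 cells with Trbv29 and Trav16n, 59.7 CPM in the 44 cells with Trbv3 and Trav7-6, and 6.91 CPM, 1 UMI, in the 25 cells with Trbv3 and Trav7d-3. Lag3 followed the same order at its ends, with 176 CPM in Trbv14 with Trav6-3 and 6.91 CPM in Trbv3 with Trav7d-3. Klrg1 was at 193 CPM in Trbv3 with Trav7d-3 and 124 CPM in Trbv3 with Trav7-6, but at 11.4 CPM in Trbv14 with Trav6-3. Gzma was at 717 CPM in Trbv14 with Trav6-3 and at 0 UMIs in the 47 cells of Trbv4 with Trav7-6 and the 44 cells of Trbv3 with Trav7-6. In the recipient, Gzma was at 1612 CPM in the 50 cells with Trbv29, which held 410 of its 734 UMIs, and without that segment it was at 98.9 CPM. Ikzf2 was at 212.5 CPM in Trbv13-3 with Trav13-1 and 120.3 CPM in Trbv1 with Trav13-1, and Ccl4 at 258 and 770.0 CPM in the same pairs. Tox and Itga4 varied less, with Tox between 124 and 313 CPM and Itga4 between 464 and 731 CPM over the 7 pairs with at least 20 Gzmk cells. The 50 recipient cells with Trbv29, not among these pairs, had less Tox, at 43.3 CPM (21.6 to 77.4). Their Tigit was at 78.6 CPM and their Itga4 at 460 CPM.

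**Figure D5:**
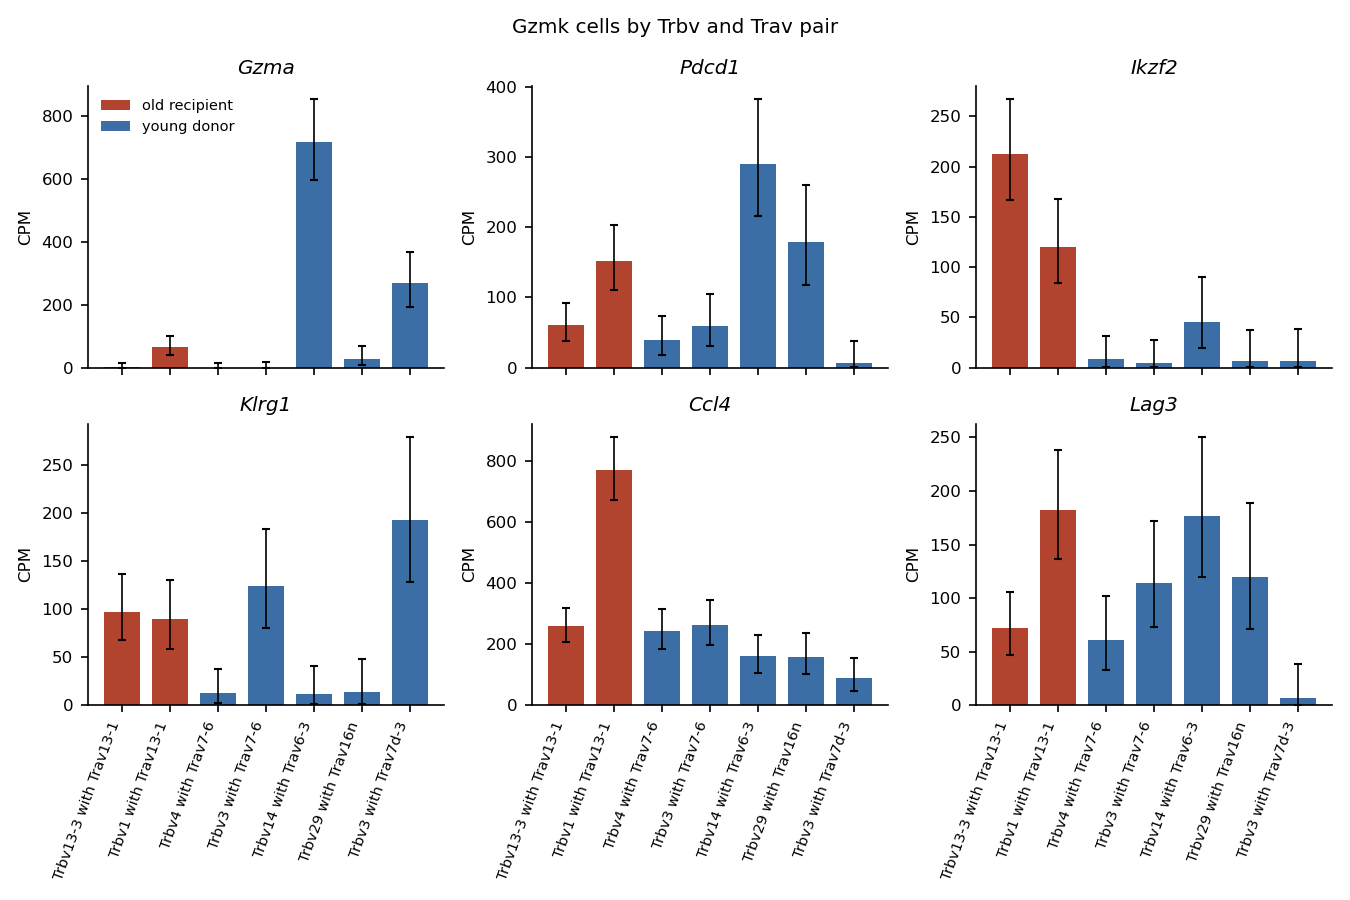
Bars give the CPM of 6 genes in Gzmk cells of the 7 Trbv and Trav pairs with at least 20 such cells, with exact Poisson 95% intervals, for pairs of the old recipient (red) and the young donor (blue). Pdcd1 and Gzma peak in Trbv14 with Trav6-3 (290.3 and 717 CPM), Ikzf2 in Trbv13-3 with Trav13-1 (212.5 CPM).

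Cells with rare receptor pairs also had more of the marker transcripts than Gzmk=0 cells, but less than cells with common pairs in the donor. A rare pair, a split chosen after the values were seen, was one held by at most 2 Gzmk cells, and 152 recipient and 80 donor Gzmk cells had one, against 203 and 316 with a pair held by at least 10. Rare-pair Gzmk cells had log2 ratios over Gzmk=0 cells of 5.43 in the recipient and 4.10 in the donor for Tigit, 4.55 and 4.72 for Pdcd1, 2.23 and 1.86 for Tox and 2.56 and 2.79 for Itga4. Common over rare, Tox was at 219 against 153 CPM in the recipient (0.52) and 218 against 80.3 CPM in the donor (1.44). The same log2 ratios in the recipient and the donor were 0.58 and 1.17 for Tigit and 0.34 and 0.87 for Itga4. Pdcd1 was at 0.23 [-0.22, 0.70] in the recipient and 1.14 [0.59, 1.73] in the donor. Klrg1 was at 95.6 against 39.7 CPM (1.27) and 56.0 against 20.1 CPM (1.48). Ly6c2 was the reverse in the donor, at 166 CPM in common-pair and 1218 CPM in rare-pair Gzmk cells (-2.87), and at 305 and 369 CPM in the recipient (-0.28). Ccl4 was at 363 against 649 CPM in the recipient (-0.84) and 210.4 against 143 CPM in the donor (0.55).

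Gzmk cells outside and inside the 6 segments were close to each other. Of 5772 genes, 3 (0.052%) were past 1.5-fold higher outside and 4 (0.0693%) lower in both libraries. Within the single libraries 0.371% were higher and 0.726% lower in the recipient, and 1.16% and 1.48% in the donor. Gzma was higher outside, at 208 against 129 CPM in the recipient and 135 against 19.8 CPM in the donor, log2 ratios of 0.69 [0.51, 0.87] and 2.77 [2.41, 3.14]. Without Trbv29 cells, which held 410 of 734 recipient UMIs, recipient Gzma was at 98.9 CPM, below the level inside, so its direction there rests on 1 segment, and in the donor 10 cells held 66.7% of its UMIs. Itgb1, the integrin beta 1 chain that pairs with integrin alpha 4, was at 0.59 [0.42, 0.76] and 0.69 [0.54, 0.84]. Cd160, an inhibitory receptor gene named here after its values were seen, was the third, at 0.87 [0.48, 1.27] and 1.01 [0.65, 1.38]. Ccl4 was lower outside, at 397 against 646 CPM in the recipient and 179 against 280.2 CPM in the donor, ratios of -0.70 [-0.80, -0.60] and -0.65 [-0.79, -0.50]. The other 3 lower genes, also named after the fact, were Klrb1f (-0.69 and -0.67), the metallothionein gene Mt3 (-0.70 and -0.71) and the gene model Gm15987 (-0.86 and -0.81). Tox (-0.07 and -0.23), Tigit (-0.17 and -0.24), Itga4 (-0.09 and -0.10) and Eomes, a T-box factor of memory cells (-0.16 and -0.30), differed by less than 1.5-fold. S100a4 (0.48 and 1.34) and Cxcr6 (0.41 and 2.17) were past 1.5-fold in the donor alone, where Pdcd1 was at 0.76 [0.50, 1.03], against -0.23 [-0.48, 0.02] in the recipient, and the difference between libraries was not tested. Trbv14 cells held 144 of the 313 donor Pdcd1 UMIs, and without them donor Pdcd1 was at 59.4 CPM outside, against 53.3 CPM inside.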

How the data were processed

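For each of the 2 libraries the authors deposited unnormalized UMI counts by gene and barcode. The submitters' processing notes name Cell Ranger, Seurat and mm10, and version 3.0.2 of the counting software stands in the matrix header, per the file headers. The annotation release is not given in the sources used here. Receptor libraries were not used here. Gene positions came from GENCODE M21 (GRCm38), which placed 99.9% of features.

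CPM are a group's UMIs of a gene over that group's total UMIs, with exact Poisson intervals, exact binomial intervals for shares and exact intervals for the ratio of 2 Poisson sums. No test was made, since each group is 1 library. Genes with at least 100 UMIs over both groups were compared, without receptor and immunoglobulin segments and Gzmk. Genes named in the text were drawn mainly from the 12 highest and 12 lowest ratios per comparison with at least 50 CPM in one group. Receptor segments, ribosomal, mitochondrial and sex-linked genes and gene models were left out of that ranking. Further genes came from a fixed set of 23 and from the lists. Not all of these are named, and genes marked as named after the fact, among them a gene model, were added. Doublets were scored against 2 simulated doublets per cell and kept. The 18 comparison and 10 other-cell lists overlap, and the members and lists were chosen with earlier results of these data known. Computation used Python 3.11.15 with numpy 2.4.6, scipy 1.17.1 and scikit-learn 1.9.0, and was tested on simulated data.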

Additional observations from a re-analysis of the deposited data

Results flagged for a closer look

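Cxcr6 ran in opposite directions in the libraries when Gzmk cells outside the expanded segments were set against Gzmk=0 cells with at least 10 Ccl5 UMIs. The log2 ratio was -0.32 [-0.56, -0.08] in the recipient and 0.75 [0.58, 0.93] in the donor, and 187 of the 346 UMIs of Cxcr6 in donor Gzmk cells lay in cells with Trbv14. Lag3 ran in opposite directions between Gzmk cells outside and inside the 6 segments, at -0.33 [-0.52, -0.14] in the recipient and 0.28 [0.04, 0.52] in the donor. Each was noted because its counting intervals lie on opposite sides of 0, and the difference between the libraries was not tested.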

How the results depend on the processing

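With 1 library per group, differences between groups carry no replicate error, and genes near 100 UMIs are read with wide counting intervals. No paired analysis was possible because each group has 1 library. The setting without common receptor pairs was added after the data were seen.

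The share of Gzmk cells among cells outside the 6 segments was higher in the recipient than in the donor under each setting tried. In the recipient and the donor it was 21.4% and 16.5% with at least 1 Gzmk UMI, 15.0% and 10.2% with at least 3, 14.1% and 12.1% without the 3 most common segments of either library, 12.7% and 7.03% without receptor pairs held by at least 10 Gzmk cells, and 25.9% and 20.7% without cells holding 2 or more UMIs of other cell types. It was 15.7% in the recipient without cells with a second Trbv and 16.1% without the highest doublet scores.

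Recipient over donor, genes past 1.5-fold were 37 higher and 27 lower without the 3 most common segments, 525 and 371 with genes of at least 20 UMIs, and 21 and 5 with at least 300 UMIs. Lower genes were 74 with TMM scaling, 80 with totals without ribosomal, mitochondrial and receptor genes, and 79 as a mean over cells. Over Gzmk=0 cells, higher and lower genes were 387 and 686 with TMM, 382 and 689 without the large families, 1374 and 551 at 20 UMIs and 574 and 168 at 300 UMIs, and 201 were lower without the common segments. Over Ccl5-rich Gzmk=0 cells they were 336 and 78 without the common segments, 371 and 112 without other-cell UMIs, 298 and 435 with TMM, 287 and 456 without the large families, 1105 and 419 at 20 UMIs, and 309 and 81 at 300 UMIs. Outside over inside the segments, higher genes were 5 at most 5% mitochondrial UMIs, with at least 1 Gzmk UMI and without other-cell UMIs, 7 without the highest doublet scores, 8 without the common pairs and 60 at 20 UMIs, where 35 were lower, and 1 was lower at 300 UMIs.

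The recipient over donor median of the chemokine list was 0.28 with at least 1 Gzmk UMI, 0.78 with at least 3, 0.93 without a second Trbv, 0.88 without the highest doublet scores, 0.13 without the common segments, 0.83 without other-cell UMIs, 0.30 with TMM scaling, 0.28 without the large families, 0.31 at 20 UMIs and 1.08 without the common pairs. The age-associated program was at 0.36 with at least 1 and with at least 3 Gzmk UMIs and without the common pairs, 0.21 without a second Trbv and at 300 UMIs, 0.27 without the highest doublet scores, 0.12 without the common segments, 0.10 without other-cell UMIs, 0.30 with TMM scaling, 0.28 without the large families and 0.29 as a mean over cells. Without a second Trbv the naive list was at -0.40 and the interferon list at -0.13, and without the common segments the NK receptors were at 0.025. Of the genes named between the libraries, 5 turned round without the common segments: Ccl3 (-0.078) and Cxcr6 (0.22), which were past 1.5-fold, and Pdcd1 (0.79), Eomes (-0.23) and Gzmb (-0.31), which were not. The cause of these shifts was not tested.

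Shares of Gzmk cells with a marker UMI followed the thinning depth. At 1000 UMIs they were 19.8% for Tox, 16.1% for Tigit, 10.2% for Pdcd1 and 35.1% for Itga4 in the recipient and 17.8%, 13.6%, 9.15% and 35.8% in the donor, and with no thinning 56.0%, 55.5%, 30.2% and 87.4% in the recipient and 54.4%, 50.4%, 33.6% and 85.2% in the donor.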
